A study of Rattus norvegicus with 8 samples.

Results

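The collagen genes of the rat liver were read from 8 Agilent 1-colour arrays, 4 from control rats and 4 from rats given furan. Members were taken by name from the array annotation, as every probe that measures a gene and whose symbol is Col, a number, a and a number. Of 30367 probes, 58 fitted, for 41 genes. The rule leaves out Col4a3bp, which encodes a lipid transfer protein and not a collagen. Of the 41 genes, 26 were among the 17681 features tested, and 15 were not tested because no probe of theirs was well above background on all 4 arrays of either group.

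All animals were male Fisher 344 (F344) rats aged 18 weeks, and each array held whole liver RNA of 1 animal. The treated rats had received furan, a heterocyclic food contaminant that the liver activates to a reactive aldehyde, by gavage in a daily amount of 8 mg per kg of body mass 5 times a week for 90 days. The study set out to follow what such dosing does to gene regulation in the liver. Livers were frozen 24 hours after the last treatment. The sources used here do not give what the control rats received.

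Collagens are secreted proteins of 3 chains wound into a triple helix, in which glycine recurs at a step of 3 residues. Fibrillar collagens assemble into the fibers of scar and stroma, type IV collagens form the sheet of the basement membrane, and the others coat fibrils, link cells to the matrix or span the cell membrane. In liver, stellate cells, portal fibroblasts and the cells of bile ducts and vessels make most of these chains, and hepatocytes are known to make collagen XVIII.

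Of the 26 tested genes, 1 was higher and 5 were lower after furan at an adjusted p below 0.05 (limma, Benjamini-Hochberg over all 17681 features), and 20 were not called. Over all features, 17.3% were called higher and 16.9% lower, so 34.2% were called in either direction. The 1 gene that rose was Col11a2, a chain of the cartilage type XI fibril. The 5 that fell were Col6a4, Col22a1, Col4a6, Col18a1 and Col9a1. The chains that form the bulk of liver scar, Col1a1, Col1a2 and Col3a1, were not called, although their furan means were above their control means. The median change over the 26 genes was 0.21 log2 units, with a range from -1.21 to 0.91, and the median over all features was -0.03. In whole liver, fewer cells of a type and less RNA per cell cannot be told apart.

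**Figure D1:**
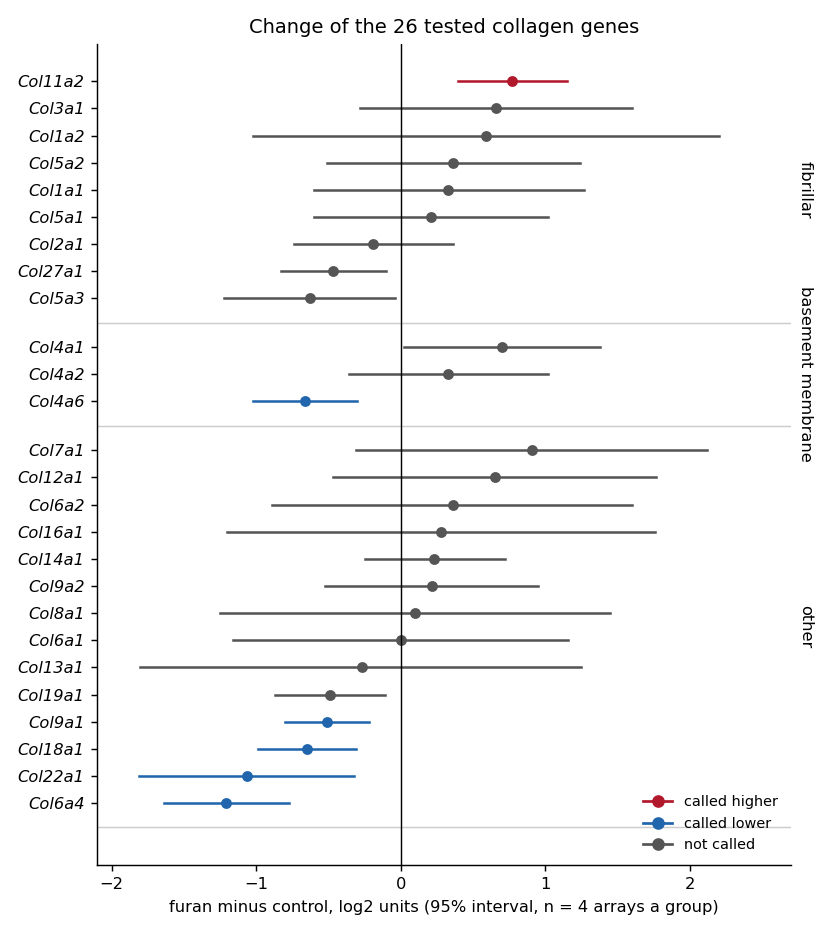
Each point is the change of 1 collagen gene in log2 units, furan minus control, and each bar its 95% interval from limma with n = 4 arrays a group, grouped by class. Col11a2 lies above 0 at 0.77, Col6a4 is the lowest at -1.21, and the intervals of Col1a1, Col1a2 and Col3a1 cross 0.

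Several probes show what part of a collagen message the arrays read, and they are printed here as the array files give them, 5′ to 3′, with rn4 coordinates from the array annotation. The Col1a1 probe lies at chr10:83637956-83638015 on the plus strand and ends on the letters taa, a stop codon. The Col3a1 probe, at chr9:44317465-44317524 on the plus strand, covers the same stretch of its own chain over 26 bases, of which 21 were the same as in the Col1a1 probe, or 80.8%, and capitals mark the others.
Col1a1: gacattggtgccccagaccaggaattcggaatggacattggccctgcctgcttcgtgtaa
Col3a1: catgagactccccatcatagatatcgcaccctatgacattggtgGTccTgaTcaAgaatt

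An unbroken repeat of the triple helix filled 2 of the 58 probes, those with a glycine codon (GGN, in capitals) at a step of 3 codons across the whole probe. One is a probe of Col4a6 at chrX:37482127-37482186, and the other is the second of 2 probes of Col4a1 at chr16:83146135-83146194, both on the plus strand. Each holds 6 such codons. A probe with the repeat over only a part of its length was not counted.
Col4a6: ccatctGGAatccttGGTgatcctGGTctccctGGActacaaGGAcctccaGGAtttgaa
Col4a1: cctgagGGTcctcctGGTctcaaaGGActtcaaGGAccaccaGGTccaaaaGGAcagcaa

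The probes of 2 of the genes that fell with no overlap between the groups carry no such repeat. The Col18a1 probe lies at chr20:11981417-11981476 and the Col6a4 probe at chr8:111131480-111131539, both on the plus strand.
Col18a1: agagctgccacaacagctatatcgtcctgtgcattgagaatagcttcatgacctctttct
Col6a4: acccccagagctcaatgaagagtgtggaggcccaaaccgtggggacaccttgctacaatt

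Levels are given as log2 of the processed signal with the 75th percentile of each array at 0. No such level is set against that of another gene, because probes differ in how brightly they bind. Per the file headers, slide 1 held arrays 1 and 2 of each group and slide 2 held arrays 3 and 4. That percentile, before scaling, stood at 827.4 to 1057.3 intensity units on the control arrays and 1256.4 to 1595.8 on the furan arrays. The scaling makes the percentile equal but not the floor of dim probes. After it, the lowest level well above background was -8.47 to -7.94 on the control arrays and -9.09 to -8.12 on the furan arrays. No spot was saturated, and 70.95% to 78.52% of spots were well above background. Replicate spots of a probe had a median coefficient of variation of 20.9% on furan array 1, against 12% to 14.6% on the other 7 arrays.

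Col1a1 and Col1a2 encode the chains of type I collagen, the main fibril of scar. Col1a1 read -1.76, -0.66, -0.41 and -1.36 in controls 1 to 4, against 0.31, -0.77, -1.24 and -1.17 in furan-treated rats 1 to 4. Furan array 1 was the only furan array above every control array, and the other 3 lay within the control range. The change was 0.33 ± 0.41 log2 units (SE, n = 4 a group; 95% interval -0.60 to 1.27; limma adjusted p = 0.562). Col1a2 read -0.17, 2.07, 1.43 and 0.76 in the controls, against 3.31, 2.01, 0.91 and 0.23 in the treated rats. Again furan array 1 was the highest of the 8 and control array 1 the lowest. Its change was 0.59 ± 0.70 (95% interval -1.02 to 2.20; limma adjusted p = 0.549), so the interval reaches from a fall to a rise of more than 1 log2 unit.

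Col3a1, the chain of type III collagen, which is laid down with type I, read 1.03, 2.20, 1.97 and 1.41 on the control arrays. It read 3.32, 2.52, 1.90 and 1.51 on the furan arrays. Furan arrays 1 and 2 lay above all control arrays, and furan arrays 3 and 4 lay among them. The change was 0.66 ± 0.41 (95% interval -0.28 to 1.60; limma adjusted p = 0.243).

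The chains of type V collagen, a minor component that limits the width of type I fibrils, did not pass the test either. Col5a1 changed by 0.21 ± 0.35 and Col5a2 by 0.36 ± 0.38, and both were highest on furan array 1. Col5a3 went the other way, at -0.63 ± 0.26 (limma adjusted p = 0.0918). Col27a1, a fibrillar chain with a slightly shortened helix, changed by -0.47 ± 0.16 (limma adjusted p = 0.0533), and its 4 furan arrays, from -3.93 to -3.69, all lay below its 4 control arrays, from -3.56 to -2.85. Col2a1, the main chain of cartilage, changed by -0.19 ± 0.24. Col11a1 and Col24a1 were not tested.

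Col11a2, read by a dim probe that was well above background on every array, was the 1 collagen that rose. It read -6.37, -6.63, -6.35 and -6.66 in the controls, against -5.61, -5.44, -5.75 and -6.12 in the treated rats. Of the 26 collagens, 7 had groups that did not overlap, against 36.7% of all features. Col11a2 was the 1 such gene above the controls, and over all features 18.8% lay with every furan array above every control array. The change was 0.77 ± 0.16, or 1.71-fold (limma adjusted p = 0.00812). Its direction turned with normexp background correction, where it was -0.23 (limma adjusted p = 0.0665, with a range of 0.00457 to 0.138 over the alternatives). The second probe of Col11a2 gave 0.35 ± 0.29 (limma adjusted p over probes 0.381).

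Col4a1 and Col4a2 encode the chains of the type IV collagen found in nearly all basement membranes. Col4a1 read -0.75, 0.17, 0.06 and -0.25 in the controls, against 0.96, 0.98, 0.09 and -0.01 in the treated rats. Furan arrays 1 and 2 stood above all controls, and furan arrays 3 and 4 lay in their range. The change was 0.70 ± 0.30 (95% interval 0.02 to 1.38), with an unadjusted p of 0.0458 and a limma adjusted p of 0.103. Col4a2 read -4.82, -3.87, -3.82 and -4.12 in the controls, against -3.15, -3.77, -4.05 and -4.36 in the treated rats, a change of 0.33 ± 0.30 (limma adjusted p = 0.432). It was highest on furan array 1 and lowest on control array 1.

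The genes of these 2 chains start back to back on chromosome 16 and share the stretch between their starts, which is why it is shown. In the RefSeq promoter table (GRCr8) it is chr16:84885521-84885596, 76 bases, printed on the plus strand with its 1 GC box (GGGCGG, here read on the other strand) in capitals. It holds no CCAAT.
Col4a1 and Col4a2, between the starts: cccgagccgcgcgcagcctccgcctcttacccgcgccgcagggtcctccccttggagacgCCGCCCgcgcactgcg

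A GC box on either strand was found in the 250 bases before the start of 18 of the 32 collagen genes with an entry in that table, or 56.2%, and in 30.5% of all 33469 promoters. CCAAT on either strand was found in 9 of the 32, or 28.1%, against 34.0% of all. The collagen shares count each gene once, while the shares of all count every promoter entry, so the units differ. The ends of these motifs can share letters, and such overlaps were not removed. The other 9 collagen genes, Col1a1 and Col3a1 among them, have no entry.

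Col4a6, whose chain is restricted to some basement membranes, fell. It read -4.48, -4.62, -5.09 and -4.60 in the controls, against -5.36, -5.42, -5.51 and -5.11 in the treated rats, with no overlap. The change was -0.66 ± 0.16, or 1.58-fold lower (limma adjusted p = 0.0143). This rests on the probe printed above: the other tested probe of Col4a6 gave -0.10 ± 0.53, and the mean of both gave -0.38 (limma adjusted p = 0.32, with a range of 0.00416 to 0.32 over the alternatives). Without control array 2 and furan array 1 the call was lost as well, at a limma adjusted p of 0.0611. Col4a3 and Col4a4, chains of the kidney's filtering membrane, were not tested.

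Col18a1, the core protein of a basement membrane proteoglycan whose end is released as endostatin, fell. It read 3.60, 3.16, 3.19 and 3.27 in the controls, against 2.61, 2.41, 2.93 and 2.68 in the treated rats. Every furan array lay below every control array, as for 18% of all features and for 6 of the 26 collagens (Col4a6, Col6a4, Col9a1, Col18a1, Col19a1 and Col27a1). The change was -0.65 ± 0.15, or 1.57-fold lower (95% interval -0.99 to -0.31; limma adjusted p = 0.0118), and it was -0.87 on slide 1 and -0.43 on slide 2. Of the 10 hepatocyte markers tested, 7 fell and 1 rose on the same arrays, where 16.9% of all features fell and 17.3% rose. Their summed signal, in multiples of the 75th percentile, was 1123.16 to 1240.05 on the control arrays and 743.63 to 964.05 on the furan arrays. The brightest probes weigh most in this sum, such as those of Ttr, Serpina1 and Alb, and the same holds for the sums of other lists below. The part of these markers in the fall of Col18a1 was not tested.

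Col15a1, the other member of the same subfamily, had 1 probe and was not tested. It was well above background on 3 control and 3 furan arrays. It read -7.14, -3.13, -8.52 and -5.02 in the controls, against -3.12, -5.72, -7.52 and -7.89 in the treated rats. Both groups held values near -3 and below -7, and they overlapped throughout.

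**Figure D2:**
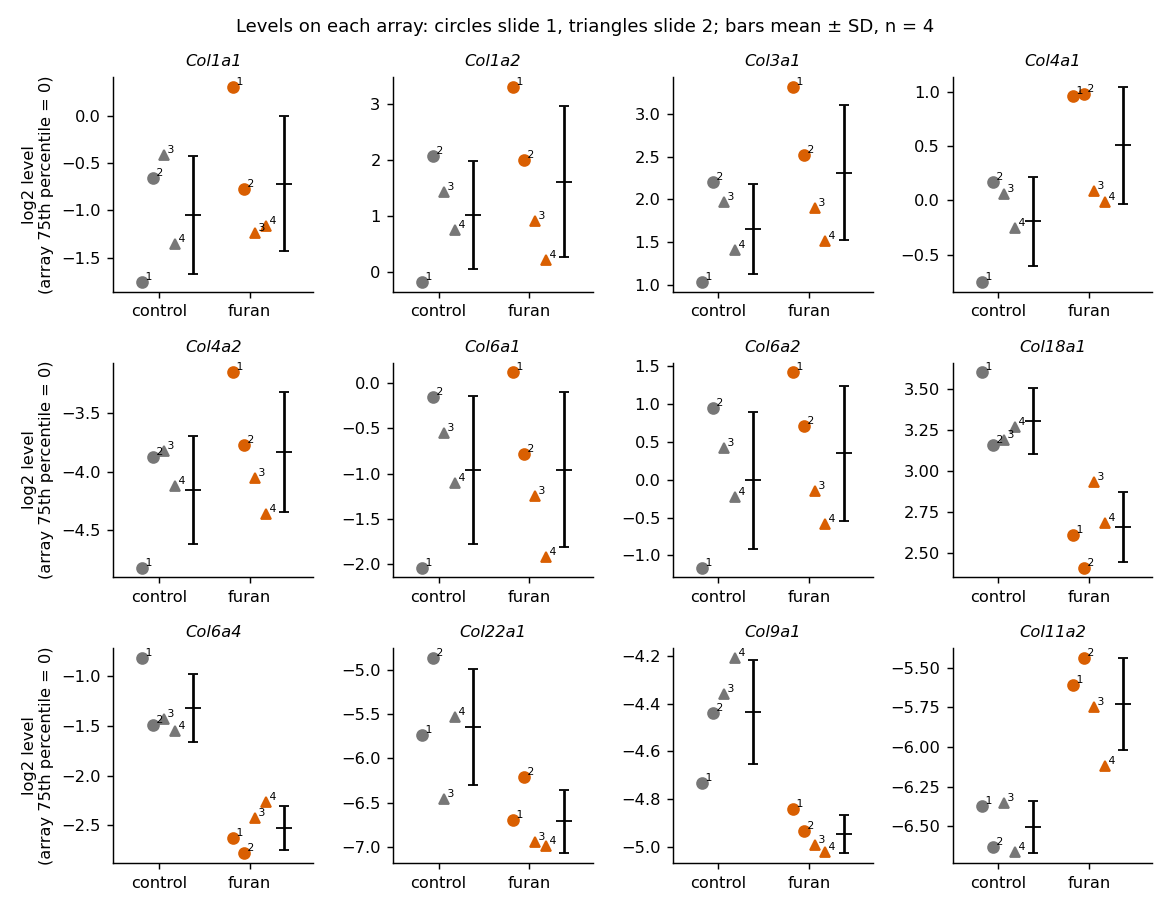
Each panel gives 1 collagen gene on the 8 arrays as log2 level with the 75th percentile of the array at 0 (circles slide 1, triangles slide 2, numbers the replicate), with the mean and SD of each group of n = 4 beside it. In Col1a1, Col1a2 and Col3a1 furan array 1 stands above all others, while in Col18a1, Col6a4 and Col9a1 the furan arrays lie below all control arrays.

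Type VI collagen forms beaded filaments around cells from 3 different chains. Col6a1 and Col6a2 did not pass the test, and Col6a3 was not tested. Col6a1 had the same mean in both groups (-0.96), with SDs of 0.82 and 0.86, a change of 0.00 ± 0.51. Col6a2 changed by 0.36 ± 0.55. Both were highest on furan array 1 and lowest on control array 1.

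Col6a4, an alternative to the Col6a3 chain, fell by the largest amount among the tested collagens. It read -0.82, -1.49, -1.43 and -1.55 in the controls, against -2.63, -2.78, -2.43 and -2.27 in the treated rats. The nearest values of the groups were -1.55 and -2.27, so they did not overlap. The change was -1.21 ± 0.19, or 2.31-fold lower (limma adjusted p = 0.00286), and was -1.55 on slide 1 and -0.86 on slide 2. Leaving out any 1 array kept the call. Col6a6 was not above background on any array.

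The fibril-associated collagens with interrupted helices, which sit on the surface of fibrils, were 9 genes, of which 7 were tested. Of these, 2 fell and 0 rose, and over all features 16.9% fell and 17.3% rose. Col22a1, known from tissue junctions such as that of muscle and tendon, read -5.74, -4.87, -6.46 and -5.53 in the controls, against -6.70, -6.21, -6.95 and -6.99 in the treated rats. Control array 3 lay below furan array 2, so the groups overlapped. The change was -1.06 ± 0.33, or 2.09-fold lower (limma adjusted p = 0.0359), and -0.69 with normexp background correction. The call was lost without any 1 of 6 arrays: without control array 1 the limma adjusted p was 0.0633, without control array 2 0.0654, without control array 4 0.0796, without furan array 1 0.0626, without furan array 3 0.0823 and without furan array 4 0.0801, over a range of 0.00293 to 0.139 for all alternatives.

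Col9a1, a chain of the type IX collagen of cartilage, read -4.73, -4.44, -4.36 and -4.21 in the controls, against -4.84, -4.93, -4.99 and -5.02 in the treated rats. The groups did not overlap, but furan array 1 and control array 1 were near each other. The change was -0.51 ± 0.13, or 1.43-fold lower (limma adjusted p = 0.0165). It was -0.30 on slide 1 and -0.72 on slide 2. This rests on 1 of 3 probes of Col9a1. Of the untested probes, one was above background on no array and the other on 2 control and 2 furan arrays.

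Among the uncalled members of this class, Col19a1 changed by -0.49 ± 0.17 (limma adjusted p = 0.0522) with no overlap between the groups. Col12a1 and Col14a1, which bind type I fibrils, changed by 0.65 ± 0.49 and 0.23 ± 0.21, Col16a1 by 0.28 ± 0.65 and Col9a2 by 0.22 ± 0.32. Col9a3 was above background on no array. Col20a1 was above background on no control array and on 3 furan arrays, so it was not tested. It read -7.27, -7.56, -8.02 and -8.07 in the controls, against -6.28, -6.44, -6.85 and -6.78 in the treated rats. With no control array above background, its difference has no measured size.

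The remaining collagens are a mixed set. Col7a1, the anchoring fibril beneath epithelia, changed by 0.91 ± 0.53 (limma adjusted p = 0.219), and was above background on 1 control array and on all 4 furan arrays. Col8a1, a network collagen of vessel walls, changed by 0.10 ± 0.59, and Col13a1, which spans the cell membrane, by -0.27 ± 0.67. Col10a1 of growth plate cartilage, Col17a1 of the epidermal hemidesmosome, Col8a2, Col23a1, Col25a1 and Col26a1 were not tested. In all, 6 of the 41 genes were above background on no array.

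By class, the 9 tested fibrillar genes had a median change of 0.33, with 1 called higher and 0 lower (limma; at an unadjusted p below 0.05, 1 was higher and 2 were lower). At that unadjusted threshold 10 of the 26 collagens passed, against 45.6% of all features (22.4% higher and 23.2% lower). The 3 basement membrane genes also had a median of 0.33, with 0 called higher and 1 lower (unadjusted, 1 and 1). The 14 others had a median of 0.05, with 0 called higher and 4 lower (unadjusted, 0 and 5). Counting Col18a1 with the basement membrane class turned that median to -0.16 over 4 genes. The collagens varied more between arrays of one group than most features did: the median pooled SD within groups was 0.52 for the 26 genes and 0.24 for all features, and the median range over the 8 arrays was 1.85 and 0.96.

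The order of the arrays was uneven. Among the 26 collagens, furan array 1 was the highest furan array for 17, or 65.4%, against 33.8% of all features. Control array 1 was the lowest control array for 15, or 57.7%, against 26%. Control array 2 was the highest control array for 14, or 53.8%, against 27.3%, and furan array 4 was the lowest furan array for 14, or 53.8%, against 19.2%. These shares describe the arrays, since genes of one array are not independent.

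Taken as each gene's level minus its control mean, the median of the 9 fibrillar genes was -0.39, 0.44, 0.15 and -0.16 in controls 1 to 4, against 1.27, 0.28, -0.11 and -0.30 in furan-treated rats 1 to 4. The 3 basement membrane genes had medians of -0.56, 0.28, 0.26 and 0.04, then 1.01, 0.39, 0.11 and -0.20. In both classes furan array 1 stood highest, control array 1 lowest, and furan arrays 3 and 4 within the control range. The 14 others had medians of -0.25, 0.42, 0.21 and -0.12, then 0.79, 0.29, -0.33 and -0.58, so there furan arrays 3 and 4 lay below all control arrays. For all features the 8 medians lay between -0.07 and 0.03.

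**Figure D3:**
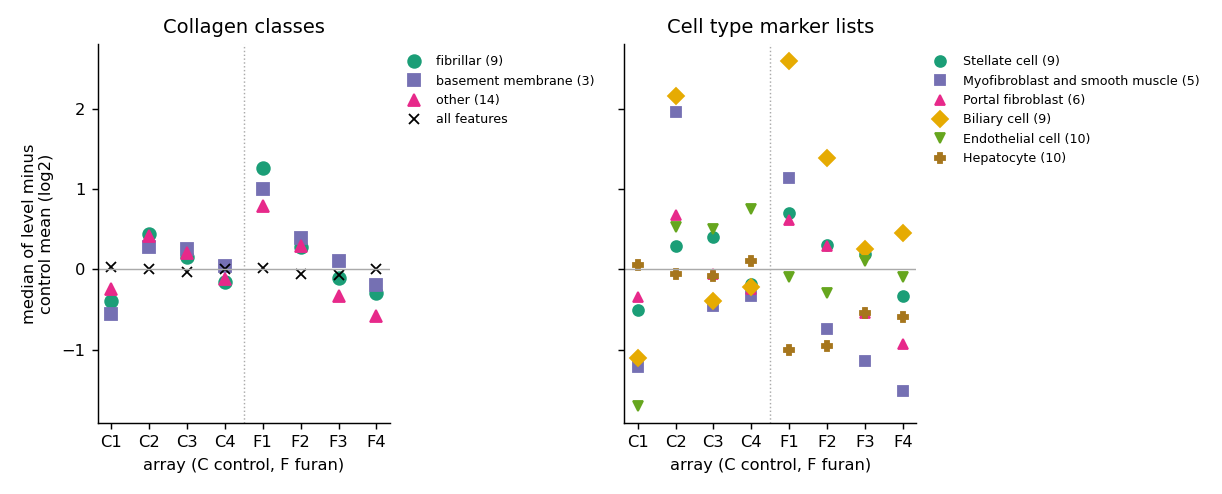
The left panel plots the median of level minus control mean, in log2 units, for each collagen class on each array, and the right panel the same for lists of cell type markers, with the number of tested genes in brackets. All collagen classes are highest on furan array 1 (1.27 for fibrillar), and the biliary markers are highest on furan array 1 (2.60) and control array 2 (2.17).

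Some lists of markers of other liver cells were high or low on the same arrays, and others were not. The 9 tested of 10 biliary markers had a median of 2.17 on control array 2 and 2.60 on furan array 1, and their summed signal ranged from 0.64 to 5.38 on the control arrays and from 1.27 to 9.0 on the furan arrays. Of the 9, 2 rose, the epithelial adhesion gene Epcam by 1.79 (limma adjusted p = 0.0074) and the duct transcription factor Sox9 by 0.48 (limma adjusted p = 0.0213). Over all features, 17.3% were called higher. With normexp background correction Sox9 was not called, at 0.17 (limma adjusted p = 0.215). The 5 tested of 8 myofibroblast and smooth muscle markers had medians of 1.97 on control array 2 and 1.14 on furan array 1, and at most -0.33 on every other array. Their summed signal ranged from 0.45 to 2.98 on the control arrays and from 0.55 to 1.76 on the furan arrays. Of the 10 endothelial markers, the median on control array 1 was -1.70, and it was between -0.30 and 0.75 on the other 7 arrays. The macrophage markers had their highest median on control array 4 (0.54) and stood at -0.28 on furan array 1. The hepatocyte markers had their lowest median on furan array 1 (-1.01). The part of these cells in the spread of the collagens was not tested.

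The lists of collagen-making cells are small, and 34.2% of all features were called. Of the 9 tested of 10 stellate cell markers, 1 rose, the pericyte gene Rgs5 by 1.21 (limma adjusted p = 0.00232), and the median change was 0.02. Their medians of level minus control mean were -0.51, 0.29, 0.41 and -0.18 on control arrays 1 to 4. On furan arrays 1 to 4 they were 0.70, 0.30, 0.19 and -0.33, so furan array 1 was highest and control array 1 lowest. Their summed signal was 4.01 to 9.72 on the control arrays and 6.75 to 8.64 on the furan arrays. None of the 5 myofibroblast and smooth muscle markers was called by limma, and 0 had an unadjusted p below 0.05. Acta2, the smooth muscle actin of activated stellate cells, changed by -0.43 ± 0.39 (limma adjusted p = 0.431). Of the 6 tested of 8 portal fibroblast markers 1 was called: the growth arrest gene Gas1 fell by 1.14 on the log2 scale (limma adjusted p = 0.00164). The medians of this list were -0.34, 0.68, -0.06 and -0.25 on control arrays 1 to 4, then 0.62, 0.29, -0.54 and -0.93 on furan arrays 1 to 4. The part of these cells in the levels of the collagens was not tested.

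Of the other cell types, limma called 0 of 10 endothelial markers (1 at an unadjusted p below 0.05), with Cdh5 at -0.40 (adjusted p = 0.081). It called 0 of 8 macrophage markers (0 unadjusted), with Adgre1 at -0.31 (adjusted p = 0.15). It called 0 of 4 tested of 5 mesothelial markers (0 unadjusted), with Upk1b at -1.23 ± 0.66 (adjusted p = 0.184). The mesothelial medians were -0.79, 1.30, 0.44 and -0.86 on control arrays 1 to 4, then 0.65, -0.66, -2.06 and -1.46 on furan arrays 1 to 4. Among the hepatocyte markers, Cyp2c11, the male-specific P450, changed by -2.13 and the coagulation factor gene F9 by -1.57 (both fell), and the apolipoprotein gene Apoa1 rose by 0.72 (limma adjusted p = 0.00339).

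The change was smaller on slide 2 than on slide 1 for 17 of the 26 collagens, against 7638 of all 17681 features. The median change over the 26 genes was 0.77 on slide 1 and -0.42 on slide 2, where all features had -0.03 on both. The change was above 0 for 17 of 26 genes on slide 1 and for 5 of 26 on slide 2. Over all 17681 features it was above 0 for 8450 on slide 1 and 8459 on slide 2. Col1a2 changed by 1.71 on slide 1 and by -0.53 on slide 2, Col1a1 by 0.98 and -0.32, Col3a1 by 1.30 and 0.02, and Col4a1 by 1.26 and 0.14. With slides as a block in the fit, the same counts of 1 higher and 5 lower were found. The difference between slides was itself tested as an interaction in limma. It was called for 0 of 17681 features, 0%, while 1111 (6.28%) had an unadjusted p below 0.05. Among the collagens, the lowest unadjusted values were 0.00809 for Col9a2, 0.017 for Col12a1 and 0.0359 for Col4a1, and no adjusted value was under 0.782. Each slide held 2 arrays of each group. On slide 1 the fibrillar medians given above were -0.39 and 0.44 (control arrays 1 and 2), then 1.27 and 0.28 (furan arrays 1 and 2). On slide 2 they were 0.15 and -0.16 (control arrays 3 and 4), then -0.11 and -0.30 (furan arrays 3 and 4). The part of single arrays in the difference between slides was not tested.

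**Figure D4:**
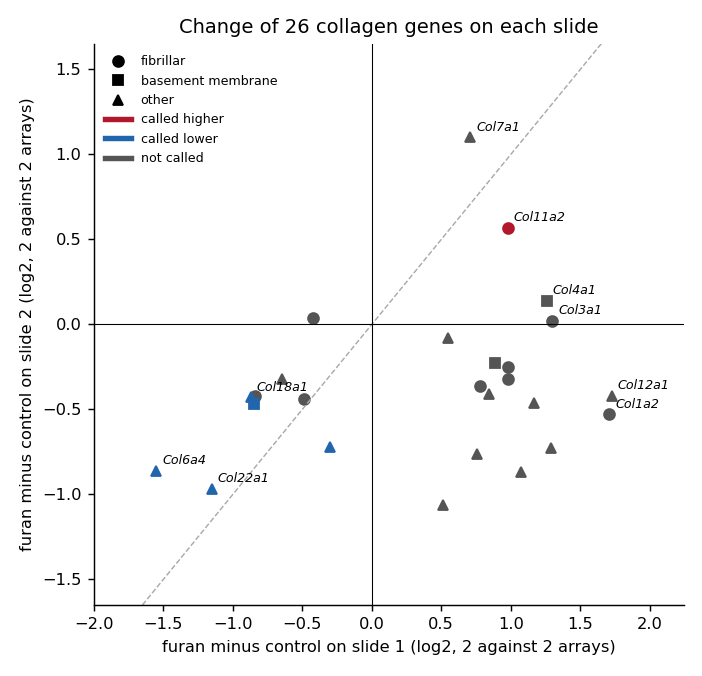
Each point is 1 of the 26 collagen genes, with its change (furan minus control, log2 units, 2 against 2 arrays) on slide 1 across and on slide 2 up, and a dashed line of equal change. Most uncalled genes lie right of 0 and below 0, with Col1a2 at 1.71 and -0.53, and the 5 that fell lie below 0 on both slides.

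For 7 genes 2 probes were tested, which gives a second reading of the same animals. Col1a1 had another probe whose start lies past the one printed above, 1245 bases downstream of its end. It read -3.99, -0.96, -2.57 and -2.92 in the controls, against 1.19, -0.00, -2.35 and -2.88 in the treated rats. Furan arrays 1 and 2 stood above all controls, and furan arrays 3 and 4 lay among them. Its change was 1.60 ± 0.97 (limma adjusted p over probes 0.238), on slide 1 it was 3.07 and on slide 2 0.13.

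The other probes of Col5a2, Col4a1 and Col14a1 gave changes of 0.50, 0.47 and 0.04 and were highest on furan array 1. For Col12a1 the probes went opposite ways, at 0.65 for the probe that stands for the gene and -0.67 for the other, and for Col4a6 they gave -0.66 and -0.10. The Col4a6 probe that was not called was high on control array 2 (-3.78) and furan array 1 (-3.87), and the called probe was not.

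**Figure D5:**
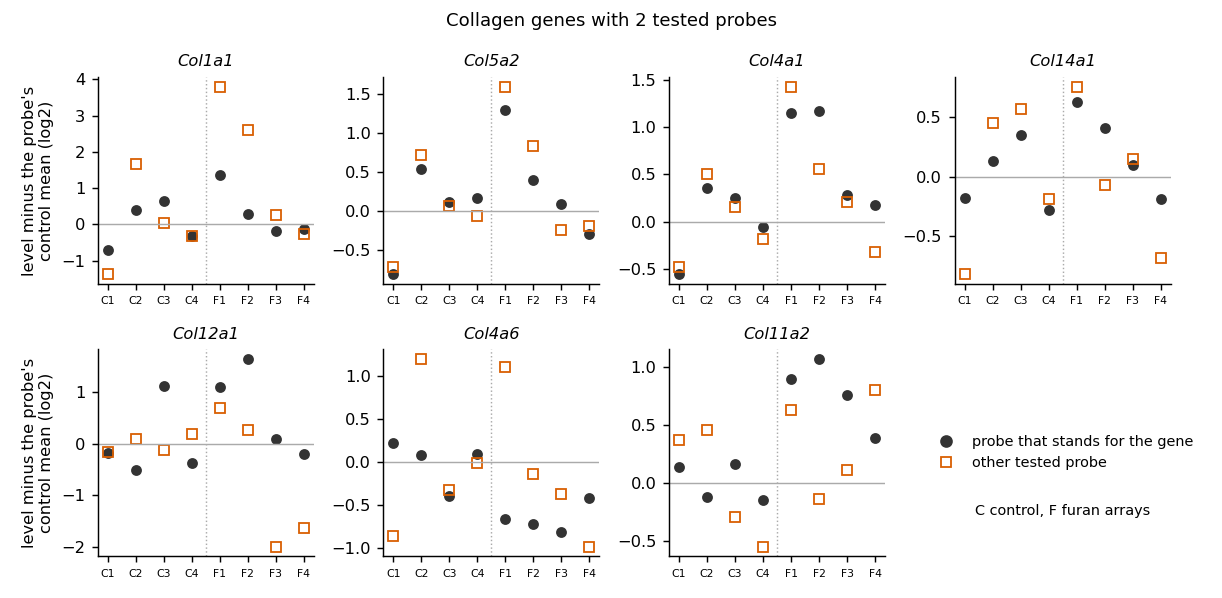
Each panel gives both tested probes of 1 collagen gene as level minus the probe's own control mean, in log2 units, on the 8 arrays (filled circles the probe that stands for the gene, open squares the other). Both probes of Col1a1 and Col5a2 are highest on furan array 1, while for Col4a6 the open squares are high on control array 2 and furan array 1 and the filled circles are low on all 4 furan arrays.

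Of 34 genes for the synthesis and processing of collagen, 28 were tested: 5 fell and 2 rose, with a median of 0.05, against 16.9% and 17.3% of all features. Loxl4, an oxidase that prepares collagen for crosslinks, read -1.77, -1.35, -1.92 and -0.88 in the controls, against -3.48, -3.37, -3.52 and -3.94 in the treated rats, a change of -2.09 ± 0.24 (limma adjusted p = 0.000907). Tll1, a protease of the family that removes the end propeptide, fell by 1.24 on the log2 scale and P4ha2, a subunit of prolyl hydroxylase, by 0.89. Tmem38b, an ion channel of the endoplasmic reticulum needed for collagen folding, changed by -0.66, and Crtap, a part of the prolyl 3-hydroxylase complex, by -0.28. The call of Crtap was lost with normexp background correction, at -0.22 (limma adjusted p = 0.0759). P3h1, the enzyme of that complex, rose by 0.42 and Bmp1, the main procollagen C-protease, by 0.37. The groups of arrays did not overlap for these 7 genes, which were picked because they were called, nor for the uncalled P4ha1. Over all features, 36.7% had groups that did not overlap.

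Of 12 receptors and uptake genes, 7 were tested and limma called 0 (0 at an unadjusted p below 0.05). Itga1, the collagen-binding integrin chain, was nearest, at 0.23 (adjusted p = 0.179). Of 24 genes of fibril-associated matrix, 16 were tested and 1 was called: Fn1, fibronectin, which hepatocytes also secrete, fell by 0.65 on the log2 scale (limma adjusted p = 0.0101). Of 21 basement membrane partners of type IV collagen, 15 were tested, 2 rose and 0 fell (limma; at an unadjusted p below 0.05, 6 and 0). Over all features 17.3% rose, or 22.4% unadjusted. One of these was Lama3, a laminin chain of epithelia. It read -3.77, -3.40, -3.84 and -4.09 in the controls, against -2.16, -2.48, -2.60 and -2.18 in the treated rats. The groups did not overlap, and the change was 1.42 ± 0.17 (limma adjusted p = 0.00119), or 0.77 with normexp background correction.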

How the data were processed

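The authors extracted the scans with Agilent Feature Extraction 10.7, per the submitters' processing notes and the file headers. The deposited scanner files give a background-subtracted processed signal per spot, in linear intensity units. The deposited series table equals that intensity times 1 factor per array. The members and gene lists were chosen with earlier results of these data known.

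Control spots and outlier spots were left out, and the log2 processed signal was taken relative to the 75th percentile of its array. Spots of a probe were averaged. A probe was tested where it was well above background on all 4 arrays of either group, and the brightest tested probe stood for its gene. Furan was compared with control in limma 3.58.1 (R 4.3.3; lmFit and eBayes, n = 4 against 4), with Benjamini-Hochberg adjustment over 17681 features and calls at an adjusted p below 0.05. The script was tested on simulated data. Arrays give no counts, so their number limits the precision.

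Per-array values are given for Col1a1, Col1a2, Col3a1, Col4a1, Col4a2, Col15a1 and Col18a1 and for other called collagens with a change of at least 1. Col11a2, Col4a6, Col9a1 and Col20a1 were added after their values were seen. Of each pathway list, up to 4 called genes in the direction of most calls and 1 in the other were named, or the one with the lowest p; of each cell type list, up to 2. Crtap, Bmp1 and the second probes were named beyond that rule. A few items are not reported here. Alternatives tried were other background correction, scaling, filters, probe summaries, blocks and arrays left out.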

Additional observations from a re-analysis of the deposited data

Results flagged for a closer look

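Of 58 groups of 4 arrays tested with Dixon's criterion (the 26 collagens and 3 class medians in each group), 3 had 1 array far from the rest, and chance alone marks about 1 in 20 such groups. Col6a4 read -0.82 on control array 1 and -1.55 to -1.43 on the other control arrays. Without that array its change was -1.04 and the call was kept (limma adjusted p = 0.00411, with a range of 0.00105 to 0.0663 over the alternatives). Col7a1 read -5.53 on control array 2 and -7.41 to -7.36 on the others, and control array 2 was its 1 control array above background. Col13a1 read -7.15 on control array 1 and -4.38 to -3.86 on the others. Without that array Col13a1 was called lower, at -1.03 (limma adjusted p = 0.0166, with a range of 0.0166 to 0.977 over the alternatives). On slide 1 alone its change was 0.51, and on slide 2 alone -1.06.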

How the results depend on the processing

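Of 544 values of single collagens over the alternatives, 465 kept their direction and their side of the threshold, 23 lost a call, 17 gained one and 39 reversed. With normexp background correction the median of all features moved from -0.03 to -0.18, 6012 features were lower, the share of calls that were higher went from 50.6% to 31.7%, and 0 collagens were higher and 10 lower. Col4a2 (-0.06), Col6a1 (-0.01), Col7a1 (-0.23), Col8a1 (-0.28), Col9a2 (-0.06) and Col11a2 (-0.23) then reversed. Quantile scaling gave 0 higher and 8 lower, with Col11a2 at a limma adjusted p of 0.0507, and no filter gave 2 higher of 40 (one, Col20a1, had no control array above background). The mean of a gene's probes turned Col12a1 to -0.01. On slide 1 alone 302 features were higher and 195 lower, 0 and 0 of them collagens, with class medians of 0.98 (fibrillar), 0.89 (basement membrane) and 0.63 (other), and Col13a1 was 0.51. On slide 2 alone 845 and 613 features were called, and 0 collagens were higher and 1 lower (Col6a4), with medians of -0.32, -0.23 and -0.59. The reversed genes there were Col1a1 -0.32, Col1a2 -0.53, Col2a1 0.04, Col4a2 -0.23, Col5a1 -0.36, Col5a2 -0.25, Col6a1 -0.76, Col6a2 -0.46, Col8a1 -0.87, Col9a2 -0.41, Col12a1 -0.42, Col14a1 -0.08 and Col16a1 -0.73. Without control array 2 and furan array 1, 2 collagens were higher and 3 lower (one of the 2, Col7a1, then had no control array above background), and Col5a1 was -0.07, Col6a1 -0.09 and Col9a2 -0.05. Counting Col18a1 as basement membrane gave -0.16. The causes were not tested. Leaving out each array in turn gave 2237 to 3013 features higher and 1936 to 3012 lower, 1 to 2 collagens higher and 4 to 6 lower, and class medians of -0.01 to 0.49, 0.10 to 0.50 and -0.35 to 0.34. Single genes that reversed ranged from -0.01 to 0.55 (Col1a1), -0.15 to 0.43 (Col5a1), -0.36 to 0.32 (Col6a1), -0.03 to 0.68 (Col6a2), -0.35 to 0.42 (Col8a1), -0.03 to 0.47 (Col9a2), -1.03 to 0.07 (Col13a1) and -0.18 to 0.70 (Col16a1). The deviations of same-numbered arrays from their group means had correlations from -0.303 to 0.279. Those of arrays with different numbers ran from -0.427 (control array 2 with furan array 3) to 0.532 (control array 2 with furan array 1). The arrays were not treated as pairs. Centring within each group ties these correlations to each other, so they cannot exclude pairing. With a replicate block, 2380 features were higher and 2175 lower, and 1 collagen was higher and 4 lower, with Col9a1 at a limma adjusted p of 0.0602. Collagens near background, such as Col7a1 and Col20a1, are limited by signal over background. The called Col11a2 and Col22a1 were well above background on every array but were also dim. Their control means were -6.51 and -5.65, and their furan means -5.73 and -6.71.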

Other observations

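Some probes lie outside the name rule but are described on the array as collagens. One described as Col4a5, the partner chain of Col4a6, was tested and changed by 0.09 (limma adjusted p = 0.769). It read -4.61, -4.07, -4.25 and -4.09 in the controls, against -3.71, -4.13, -4.52 and -4.32 in the treated rats, highest on furan array 1 and lowest on control array 1. A probe described as Col6a3 and 2 described as Col6a5 were above background on no array.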
